A study of Homo sapiens with 6 samples.

Results

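The kinesins are the genes whose names in the deposited table have the form KIF followed by a number and an optional letter from A to C, or KIFC followed by a number. The table held 42 such genes among 48644 rows. Kinesins are motor proteins that hydrolyse ATP to walk along microtubules or to shorten their ends. One set of them works on chromosomes and the spindle during cell division, and its mRNAs are known to accumulate in G2 and M phase. Another set carries vesicles, organelles and protein complexes through the cytoplasm, mostly toward the plus ends of microtubules, throughout the cell cycle. By these known roles 14 were classed as mitotic, 14 as transport and 14 as other, the last class taking members with ciliary, signalling, mixed or less certain roles. CENPE and STARD9 are kinesins too, but their names are outside the rule and neither passed the filter on low values.

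The study used KYSE70, a cell line established from a human squamous carcinoma of the esophagus. It expresses SOX2 and TP63, both genes of transcription factors that specify stratified epithelia. All cells stably carried the doxycycline-inducible vector pLKO-Tet-On with a hairpin against either SOX2 or TP63, and poly(A) RNA was sequenced in 6 libraries. The groups were shSOX2 at day 4 of doxycycline at 50 ng/ml (2 libraries), shSOX2 at day 0 without doxycycline (1 library), shTP63 at day 4 of the same dose (2 libraries) and shTP63 at day 0 without it (1 library). The question is what happens when either factor is suppressed. No hairpin without a target was analysed here, so the action of doxycycline and that of the hairpin cannot be told apart. The numbers in the titles, taken as replicates, could also stand for different hairpins. Both day 0 libraries carry number 2, so in each line day 4 replicate 2 shares its number with the day 0 library and replicate 1 does not. The labels do not say that libraries came from separate cultures, so the spread behind the limma p-values may be technical. That spread comes from the pairs of day 4 libraries, moderated over all tested genes, since each day 0 group has 1 library.

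Levels below are the deposited values, taken as log2(RPKM + 1), with day 4 replicate 2 given before replicate 1. Changes and folds are on that scale too, which compresses those of weakly expressed genes. How deeply each library was sequenced is unknown. Between 16167 genes, in the uninduced shTP63 library, and 23509 were above 0. All 9 squamous and basal markers checked were above the filter. Of the defining markers of other cells, CD3E, KDR and STMN2 were at 0 in every library, and the summed linear RPKM of the 5 leukocyte markers was 0 to 0.384. The 5 fibroblast markers summed to 1.82 to 5.40, with COL1A1 the only one above the filter, and the endothelial and neuronal markers each summed to less than 1. SOX2 was at 5.65 and 4.67 at day 4 of the SOX2 hairpin, against 6.25 at day 0. TP63 was at 2.26 and 2.11 at day 4 of the TP63 hairpin, against 3.99 at day 0. Neither target passed the test against its own day 0 (limma adjusted p = 0.469 for SOX2 and 0.131 for TP63).

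Promoter sequences differed between mitotic and transport kinesins. Mitotic genes are commonly held down in resting cells and switched on in G2 by complexes (DREAM, and MuvB with B-MYB and FOXM1) that bind a short element near the start, the CHR, often with NF-Y on a CCAAT box nearby. The CHR was searched as TTTGAA or as TTCGAA. An AT-only variant of it was searched as TTTAAA, and the box as CCAAT, all on both strands of the 250 bases before and 50 after each RefSeq start (GRCh38.p14). The second CHR form and the AT-only variant read the same on both strands and were counted once. CATTGT, a core of the sites that SOX factors bind, was searched too. In the 34 kinesin promoters the matches of different motifs did not overlap, except that 1 CATTGT shared a base with a CHR in KIF20B. Of the 42 kinesins, 34 matched a promoter. KIF5A, KIF13B, KIFC3, KIF19, KIF21B, KIF26B, KIF27 and KIFC2 did not.

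A CHR was found in 11 of 14 mitotic kinesin promoters, in 1 of 11 transport promoters and in 1 of 9 other promoters, against 16.6% of all 27305 promoters of this length and 10.2% of the promoters of tested genes. CCAAT was found in 11 of 14 mitotic, 3 of 11 transport and 3 of 9 other promoters, against 35.7% of all. Both motifs together were in 10 of 14 mitotic promoters and in 6.58% of all. In those 10 the nearest CHR and CCAAT were separated by 4 to 117 bases, with a median of 24.5. The mitotic CHR matches lay between positions -55 and 36 relative to the start. The transport gene with a CHR match was KIF5B, and it lay farther out, at positions -140 to -135. The other gene with a match was KIF24. KIF2C and KIF20A, which are mitotic, held no CHR match but had the AT-only variant. That variant was found in 4 of 14 mitotic, 1 of 11 transport and 0 of 9 other promoters, against 12.3% of all. KIF23 and KIF14 held it besides a CHR. CATTGT was found in 2 of 14 mitotic, 1 of 11 transport and 0 of 9 other promoters, against 11% of all. A match is a description of these letters and not evidence of a bound factor.

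**Figure D1:**
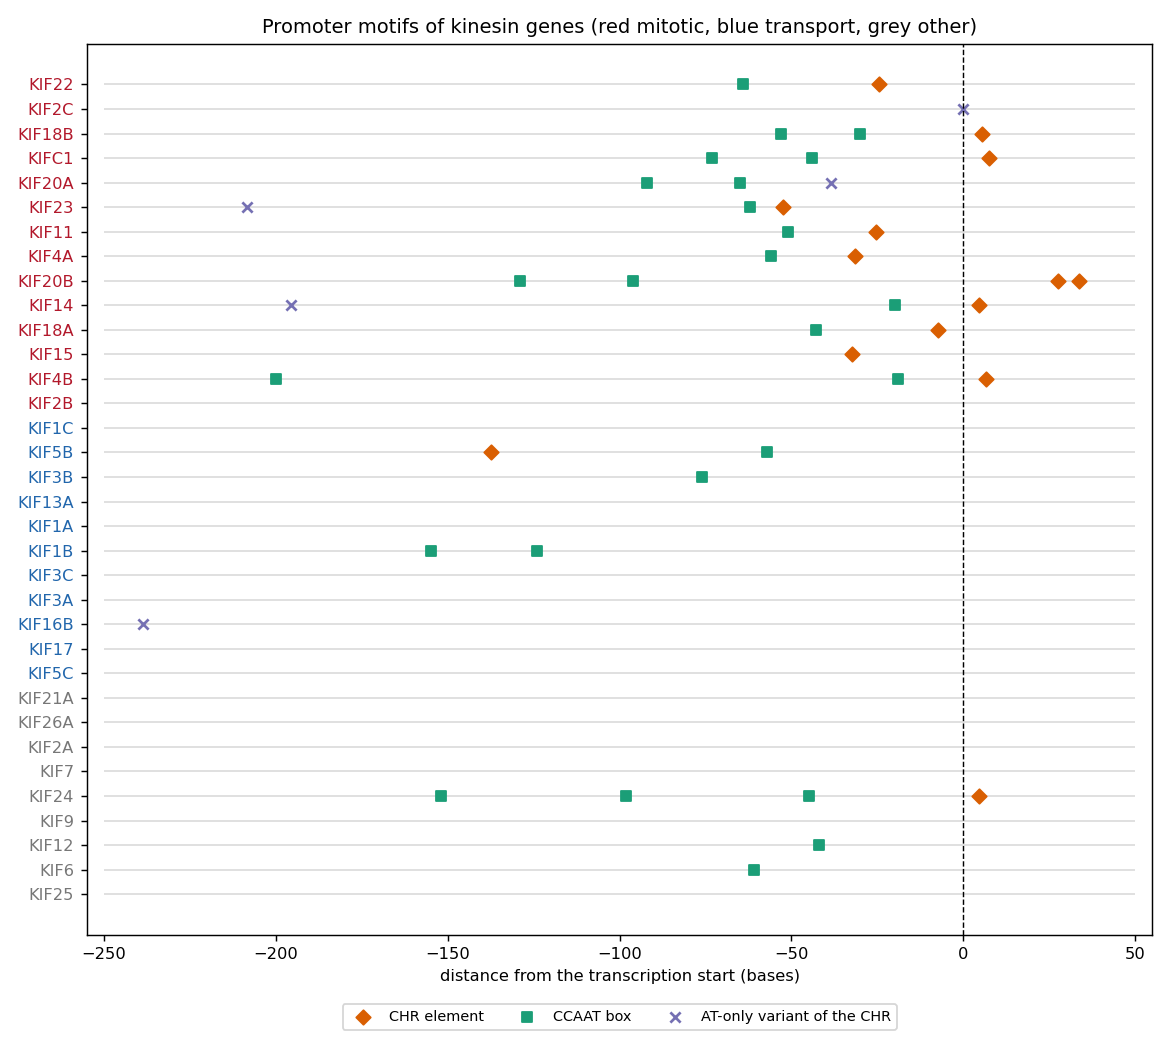
Positions of CHR, CCAAT and AT-only CHR variant matches in the 34 kinesin promoters found in RefSeq, one gene per row, with distance from the transcription start in bases on the x axis and the dashed line at the start. CHR matches cluster near the start in 11 of 14 mitotic promoters, while 1 of 11 transport promoters holds one.

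The last 100 bases before the start are shown for the mitotic genes with a CHR match in that stretch and a CCAAT box, then for KIF20A with the AT-only variant, then for the 2 highest transport kinesins. All are written 5′ to 3′ on the gene's strand in GRCh38.p14, a build other than that of the expression table. Capitals mark the CHR, its AT-only variant and the CCAAT box on either strand. The box reads ATTGG when it lies on the opposite strand, and the CHR of KIF11 reads TTCAAA for the same reason.
KIF11 (chr10:92593030-92593129, plus strand): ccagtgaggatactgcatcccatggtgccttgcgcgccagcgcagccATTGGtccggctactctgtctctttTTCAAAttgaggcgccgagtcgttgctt
KIF23 (chr15:69414249-69414348, plus strand): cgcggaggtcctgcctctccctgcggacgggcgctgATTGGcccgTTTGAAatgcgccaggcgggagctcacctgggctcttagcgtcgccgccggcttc
KIF22 (chr16:29790651-29790750, plus strand): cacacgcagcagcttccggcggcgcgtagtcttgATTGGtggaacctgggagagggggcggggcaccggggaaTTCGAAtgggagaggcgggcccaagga
KIF4A (chrX:70290004-70290103, plus strand): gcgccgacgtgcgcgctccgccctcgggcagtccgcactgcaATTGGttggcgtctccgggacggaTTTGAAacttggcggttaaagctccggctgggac
KIF18A (chr11:28108157-28108256, minus strand): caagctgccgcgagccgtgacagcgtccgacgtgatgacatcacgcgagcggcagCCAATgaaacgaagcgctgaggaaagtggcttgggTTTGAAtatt
KIF20A (chr5:138179012-138179111, plus strand): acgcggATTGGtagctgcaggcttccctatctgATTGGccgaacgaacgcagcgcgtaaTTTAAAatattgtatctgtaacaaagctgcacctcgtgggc
KIF5B (chr10:32056426-32056525, minus strand): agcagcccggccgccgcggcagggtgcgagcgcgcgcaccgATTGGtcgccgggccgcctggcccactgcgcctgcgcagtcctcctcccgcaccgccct
KIF1C (chr17:4997850-4997949, plus strand): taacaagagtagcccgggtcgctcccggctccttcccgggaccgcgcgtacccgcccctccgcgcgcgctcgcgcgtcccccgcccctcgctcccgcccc
In KIF11, KIF23, KIF22, KIF4A and KIF18A the CCAAT box precedes the CHR, as KIF20A's boxes precede its AT-only variant. KIF5B has a CCAAT box and no CHR in this stretch, and KIF1C has neither.

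Of the 42 kinesins 26 reached 1 in mean linear RPKM across the libraries and were tested, 11 mitotic, 10 transport and 5 other. The remaining 16 were KIF2B, KIF4B and KIF15 among the mitotic genes, KIF5A, KIF5C, KIF17 and KIFC3 among the transport genes, and 9 others. KIF2B, which is known mainly from testis, was at 0 in every library. The neuronal heavy chains KIF5A and KIF5C were at 0.22 or lower on the log2 scale in every library. KIF24, just under the filter, had a mean linear RPKM of 0.898, and KIF13B, just over it, one of 1.11. KIF4B is an intronless copy of KIF4A, so the counting could have split reads between them. No strand-specific step is stated. In the GENCODE annotation, exons of FOXH1 on the opposite strand cover 21.7% of the exon bases of KIFC2, which is therefore uncertain, and no single gene's exons cover more than 6.3% of those of any other tested kinesin.

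By the mean over the 6 libraries, the 2 highest kinesins were transport motors, though in single shSOX2 libraries mitotic kinesins stood above one or both of them. KIF1C, which carries vesicles and moves toward cell protrusions, was at 4.59 and 4.06 in shSOX2 cells at day 4, against 4.60 at day 0, and at 4.64 and 4.41 in shTP63 cells at day 4, against 4.74 at day 0. KIF5B, the widely expressed conventional kinesin heavy chain, followed with a mean of 4.10 over the 6 libraries. KIF3B, a motor subunit of heterotrimeric kinesin-2, which serves cilia and vesicle transport, came after the mitotic KIF22, KIF2C and KIF18B with a mean of 3.26, while its partner KIF3A had 1.33. Per length, the kinesin-2 partners thus differed in level in each library, with KIF3B the higher.

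Among the mitotic motors the highest means were 3.65 for KIF22, a chromokinesin that binds chromosome arms, 3.60 for KIF2C, a depolymerase (MCAK) that corrects faulty kinetochore attachments, and 3.43 for KIF18B, a depolymerase of astral microtubules. KIF11, the motor (Eg5) that pushes spindle poles apart, had a mean of 2.27. KIF20B and KIF14, which act in cytokinesis, and KIF18A, which limits chromosome oscillation, had means of 1.05 to 1.09, near the filter. The others were led by KIFC2 at 3.09, KIF21A, which restrains microtubule growth, at 2.26, and KIF26A at 2.07.

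**Figure D2:**
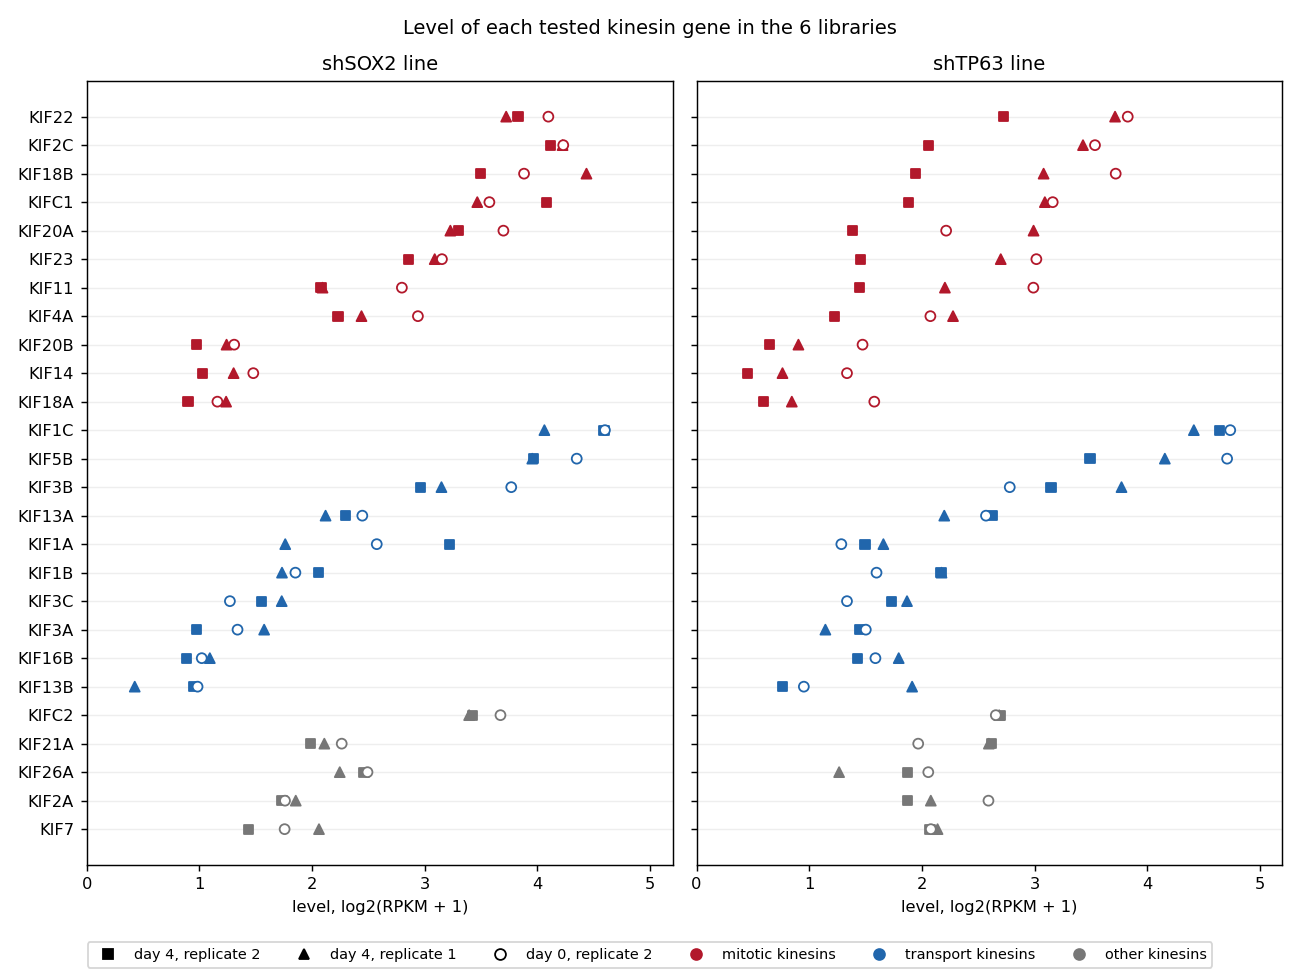
Level of each of the 26 tested kinesins, in log2(RPKM + 1), in the shSOX2 line (left) and the shTP63 line (right), with squares and triangles for the day 4 libraries and open circles for day 0. In the shTP63 line every mitotic kinesin has its lowest value in day 4 replicate 2.

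After induction of the TP63 hairpin the mitotic kinesins were lower, most of all in 1 of the 2 libraries, and none of the differences passed the test. The median log2 change of the 11 tested mitotic kinesins was -0.73, against 0.00 over all 10536 tested genes. It was -1.10 in day 4 replicate 2 and -0.32 in replicate 1. In both day 4 libraries 9 of the 11 were below day 0, where 38.5% of all tested genes were. In bulk RNA, fewer dividing cells and less mRNA per cell cannot be told apart.

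KIF11 was at 1.44 and 2.20 in shTP63 cells at day 4, against 2.99 at day 0, a log2 change of -1.16 ± 0.38 (limma SE, n = 2 and 1, limma adjusted p = 0.241). KIF18A was at 0.59 and 0.85 at day 4, against 1.58 at day 0 (log2 change -0.86 ± 0.30, limma adjusted p = 0.258). KIF14 was at 0.45 and 0.76 at day 4, against 1.34 at day 0 (log2 change -0.73 ± 0.30, limma adjusted p = 0.321). In all of these, both day 4 libraries lay below day 0. KIF20B was at 0.65 and 0.90 at day 4, against 1.47 at day 0 (log2 change -0.70 ± 0.29, limma adjusted p = 0.332). KIF18B was at 1.95 and 3.08 at day 4, against 3.72 at day 0 (log2 change -1.21 ± 0.56, limma adjusted p = 0.370), the largest log2 change of a tested kinesin in this line. KIF11, KIF18A, KIF14 and KIF20B were the only tested kinesins with an unadjusted p under 0.05, a count of 4 of 11 mitotic kinesins on the lower side, where 7.23% of all tested genes were, and none was on the higher side, where 7.33% were. Of those, KIF18A, KIF14 and KIF20B had mean levels near the filter. All day 0 values here came from the uninduced shTP63 library, the one with the fewest genes above 0. KIF11, KIF18A and KIF18B were at least 1.5-fold lower in both day 4 libraries, 3 of 11 where 9.17% of all tested genes were. Limma called 0 of 26 kinesins after adjustment, where 1 of 10536 genes was called lower (0.00949%) and 1 higher (0.00949%).

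In the other mitotic kinesins the distance below day 0 was larger in replicate 2. KIF2C was at 2.06 and 3.43 in shTP63 cells at day 4, against 3.54 at day 0, and KIF22 was at 2.72 and 3.71, against 3.83. KIFC1, a minus-end motor (HSET) that focuses spindle poles, was at 1.88 and 3.09, against 3.16. In these 3 genes the log2 difference of replicate 1 from day 0 was -0.11 to -0.07, against -1.48 to -1.10 for replicate 2. KIF23, the motor subunit of centralspindlin in the midzone, was at 1.46 and 2.70 at day 4, against 3.02 at day 0. KIF20A, which brings the chromosomal passenger complex to the midzone, was at 1.39 and 2.99, against 2.22, and the chromokinesin KIF4A was at 1.22 and 2.28, against 2.08. For KIF20A and KIF4A the 2 day 4 libraries thus lay on opposite sides of day 0.

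The gap between the 2 day 4 libraries of the shTP63 line was a feature of the mitotic class as a whole. All 11 mitotic kinesins were lower in replicate 2 than in replicate 1, where 49.3% of all tested genes were, and 6 of 11 were at least 2-fold lower, where 2.81% were. The median log2 difference, replicate 2 minus replicate 1, was -1.05 for mitotic and -0.15 for transport kinesins. Between the shSOX2 day 4 libraries the same median was -0.21 for mitotic kinesins.

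The transport kinesins of the shTP63 line had a median log2 change of 0.16, from -0.89 for KIF5B to 0.68 for KIF3B. The median was 0.0026 with replicate 2 alone, 0.29 with replicate 1 alone and -0.037 with the day 0 library of the shSOX2 line as control. KIF5B was at 3.49 and 4.16 at day 4, against 4.71 at day 0 (log2 change -0.89 ± 0.39, limma adjusted p = 0.353). KIF3B was at 3.15 and 3.77 at day 4, against 2.78 at day 0 (log2 change 0.68 ± 0.38, limma adjusted p = 0.450). KIF1B, which carries mitochondria and synaptic vesicle precursors in neurons, was at 2.17 in both day 4 libraries, against 1.60 at day 0 (log2 change 0.57 ± 0.31, limma adjusted p = 0.428). KIF3C, another kinesin-2 subunit, was at 1.73 and 1.87 at day 4, against 1.34 at day 0 (log2 change 0.47 ± 0.29, limma adjusted p = 0.496). Both day 4 libraries were below day 0 in 3 of 10 transport kinesins and above it in 4 of 10, where 38.5% and 37.9% of all tested genes were. KIF1A, a motor of synaptic vesicle precursors, had log2 differences from day 0 of 0.21 and 0.37. KIF13A and KIF16B, which act on endosomes, were at 2.63 and 2.20, against 2.57, and at 1.43 and 1.79, against 1.59, so for both the day 4 libraries lay on opposite sides of day 0. KIF13B, a motor of membrane cargoes, was at 0.76 and 1.91 at day 4, against 0.95 at day 0, so its value depends on the library.

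Among the others, KIF21A was at 2.62 and 2.59 in shTP63 cells at day 4, against 1.97 at day 0 (log2 change 0.64 ± 0.30, limma adjusted p = 0.369). KIF2A, a depolymerase used both at spindle poles and in neurons, was at 1.87 and 2.08, against 2.59. KIF26A, an atypical kinesin, was at 1.87 and 1.27, against 2.06. KIF7, which acts in Hedgehog signalling at the cilium tip, was at 2.07 and 2.14, against 2.08. KIFC2 was at 2.70 and 2.69, against 2.66. KIF21A was the only tested kinesin at least 1.5-fold higher in both day 4 libraries, where 9.39% of all tested genes were.

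After induction of the SOX2 hairpin the median difference of the mitotic class was smaller than in the shTP63 line. The median log2 change was -0.20 for mitotic and -0.16 for transport kinesins, against -0.05 over all tested genes. With replicate 2 alone these medians were -0.33 and -0.084, and with replicate 1 alone -0.11 and -0.36, so the order of the classes depended on the library. With the day 0 library of the shTP63 line as control the mitotic median was -0.043. Both day 4 libraries were below day 0 in 8 of 11 mitotic and 5 of 10 transport kinesins, where 40.2% of all tested genes were. The mitotic count depended on the control library, and was 3 of 11 with both day 0 libraries as control and 4 of 11 with the day 0 library of the shTP63 line. Limma called 0 of 26 kinesins, where 0% of all tested genes were called in either direction, and 0 of 26 had an unadjusted p under 0.05, where 4.26% of all tested genes were lower and 6.12% higher.

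KIF11 was at 2.08 and 2.09 in shSOX2 cells at day 4, against 2.80 at day 0 (log2 change -0.71 ± 0.38, limma adjusted p = 0.546). KIF4A was at 2.23 and 2.44, against 2.94 (log2 change -0.60 ± 0.45, limma adjusted p = 0.652). KIF14 was at 1.02 and 1.30, against 1.48 (log2 change -0.31 ± 0.30, limma adjusted p = 0.728). KIF11 was the mitotic kinesin with the lowest day 4 values relative to day 0, and its 2 day 4 libraries nearly coincided. It and KIF3B were the 2 of 26 at least 1.5-fold lower in both libraries, where 5.85% of all tested genes were. KIF20A was at 3.30 and 3.23, against 3.70 (log2 change -0.43 ± 0.59, limma adjusted p = 0.813). KIF22 was at 3.83 and 3.72, against 4.10, and KIF2C at 4.11 and 4.22, against 4.23. KIF18B was at 3.49 and 4.44, against 3.88, and KIFC1 at 4.08 and 3.47, against 3.57. These last 2 genes had day 4 libraries on opposite sides of day 0.

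Among the transport kinesins of the shSOX2 line, KIF3B was at 2.96 and 3.15 at day 4, against 3.77 at day 0 (log2 change -0.71 ± 0.38, limma adjusted p = 0.544). KIF5B was at 3.96 and 3.95, against 4.35 (log2 change -0.39 ± 0.39, limma adjusted p = 0.739). KIF3C was at 1.55 and 1.73, against 1.27 (log2 change 0.37 ± 0.29, limma adjusted p = 0.670). KIF3C was the only tested kinesin above day 0 in both day 4 libraries of this line, where 33.3% of all tested genes were. KIF1A was at 3.22 and 1.76 at day 4, against 2.57 at day 0, so the day 4 libraries lay on opposite sides. Among the others KIFC2 was at 3.43 and 3.39, against 3.67, KIF21A at 1.99 and 2.11, against 2.26, and KIF26A at 2.46 and 2.25, against 2.49.

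**Figure D3:**
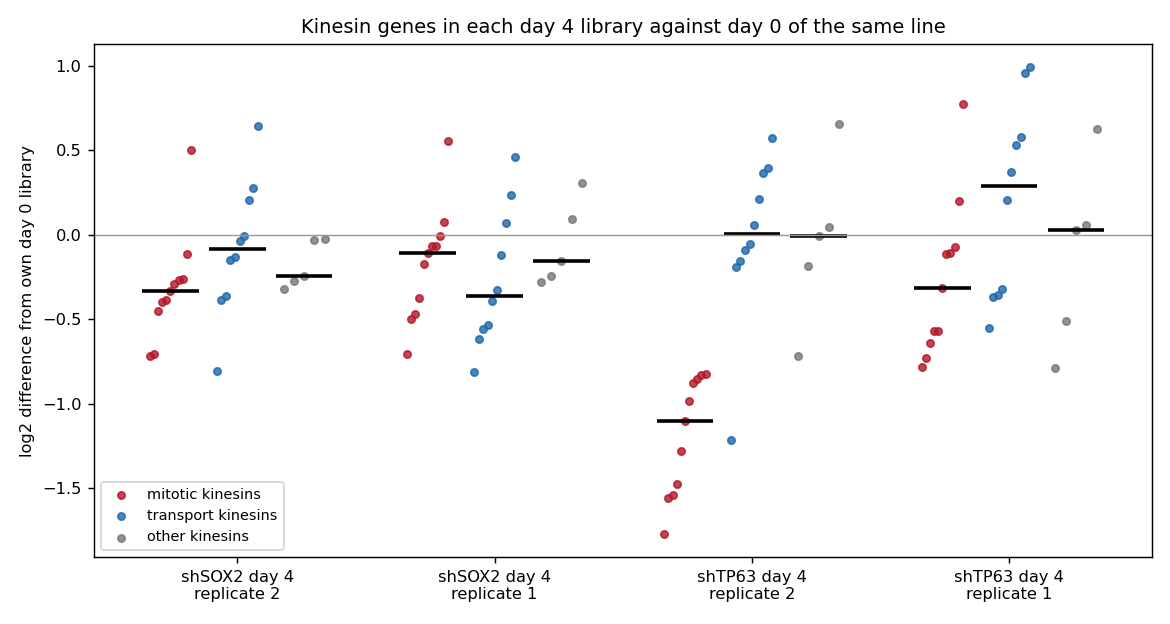
Log2 difference of each tested kinesin from the day 0 library of its own line, for the 4 day 4 libraries, with black bars at the class medians (11 mitotic, 10 transport and 5 other genes). In shTP63 replicate 2 every mitotic kinesin lies between -1.77 and -0.82, a range that also holds the transport kinesin KIF5B at -1.22. In the other 3 libraries the classes overlap around 0.

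Set against each other, the mitotic and transport classes had medians farther apart in the shTP63 line than in the shSOX2 line. The mitotic median minus the transport median was -0.89 in the shTP63 line, -1.11 in replicate 2 and -0.61 in replicate 1. In the shSOX2 line it was -0.04, -0.25 in replicate 2 and 0.25 in replicate 1, so its sign depended on the library. Between the uninduced lines, shTP63 minus shSOX2, it was also -0.25, and 8 of 11 mitotic kinesins were lower in the uninduced shTP63 library, where 49% of all tested genes were.

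The summed linear RPKM of all 14 mitotic kinesins, filtered or not, was 22.39 and 59.75 in shTP63 cells at day 4, against 71.17 at day 0. In shSOX2 cells it was 81.29 and 89.19 at day 4, against 96.6 at day 0. The sum was thus lower in the day 4 libraries of each line than in its own day 0 library, but both induced shSOX2 libraries were above the uninduced shTP63 one. The sum over the 14 transport kinesins was 59.42 and 68.52 in shTP63 cells at day 4, against 73.06 at day 0, and 64.95 and 52.17 in shSOX2 cells at day 4, against 72.6 at day 0. The ratio of the mitotic to the transport sum was 0.377 and 0.872 in shTP63 cells at day 4, against 0.974 at day 0, and 1.25 and 1.71 in shSOX2 cells at day 4, against 1.33 at day 0.

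The difference of the responses, that of shTP63 minus that of shSOX2, was tested for each gene, and limma called 0 of 26 kinesins, where 0% of all tested genes were called in either direction. The 1 kinesin with an unadjusted p under 0.05, where 2.47% of all tested genes were on the lower and 2.08% on the higher side, was KIF3B, with a log2 change of 0.68 in the shTP63 line and of -0.71 in the shSOX2 line, a difference of 1.39 ± 0.54 (limma adjusted p = 0.995). Uninduced, KIF3B stood at 2.78 with the TP63 hairpin and at 3.77 with the SOX2 hairpin, and with the other line's day 0 as control, a setting added after the values were seen, both changes had the opposite sign (-0.31 in shTP63 and 0.28 in shSOX2). KIF18B had a difference of -1.29 ± 0.80 (limma adjusted p = 0.995). The induced shTP63 libraries were also set directly against the induced shSOX2 libraries, and limma called 0 of 26 kinesins, where 0.513% of all tested genes were called lower and 0.247% higher. Unadjusted, 5 were lower and 1 higher at a p under 0.05, where 12.5% and 10.5% of all tested genes were.

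In that comparison 9 of 11 mitotic kinesins were lower in both shTP63 libraries than in both shSOX2 libraries, where 26.6% of all tested genes were. Some of these gaps were small. KIF22 was at 3.714 in shTP63 replicate 1 and at 3.722 in shSOX2 replicate 1. KIF18A was at 0.846 in shTP63 replicate 1 and at 0.899 in shSOX2 replicate 2. KIF2C had a log2 difference of -1.42 ± 0.44 (limma adjusted p = 0.137), KIF18B one of -1.45 ± 0.46 (limma adjusted p = 0.143) and KIFC1 one of -1.29 ± 0.43 (limma adjusted p = 0.155). The exceptions were KIF11 and KIF4A, whose induced libraries overlapped between the lines. No mitotic kinesin was higher without overlap, where 30.5% of all tested genes were. Among transport kinesins 3 of 10 were (KIF1B, KIF3C and KIF16B), near that share, and KIF1A was lower without overlap. KIF16B was at 1.43 and 1.79 in induced shTP63 cells, against 0.89 and 1.09 in induced shSOX2 cells (log2 difference 0.62 ± 0.25, limma adjusted p = 0.192). The uninduced lines differed by about as much in KIF16B, with 1.59 in shTP63 cells and 1.02 in shSOX2 cells. Without shTP63 day 4 replicate 1, the group held replicate 2 alone, and KIF2C, KIF20A, KIFC1 and KIF18B had log2 differences of -2.11 to -1.88. The only pair left to give a spread was then that of shSOX2 day 4. In these 4 genes its standard deviation was 0.05 to 0.67, against 0.80 to 1.13 between the shTP63 day 4 libraries. The uninduced lines, shTP63 minus shSOX2, already differed by -1.48 in KIF20A, -0.69 in KIF2C, -0.41 in KIFC1 and -0.16 in KIF18B.

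Genes that work with the mitotic kinesins had a similar division between libraries. The 29 tested partners, from the chromosomal passenger complex, the centralspindlin and PRC1 midzone, kinetochores and mitotic kinases, had a median log2 change of -0.84 in the shTP63 line, -1.31 in replicate 2 and -0.31 in replicate 1. Limma called 0 of 29. At an unadjusted p under 0.05, 8 of 29 were lower, where 7.23% of all tested genes were, and 1 was higher, where 7.33% were. INCENP, the scaffold of the passenger complex, was at 2.75 and 2.89 in shTP63 cells at day 4, against 4.06 at day 0 (log2 change -1.24 ± 0.36, limma adjusted p = 0.196). AURKA, a spindle pole kinase, was at 1.95 and 2.47, against 3.39 (log2 change -1.18 ± 0.35, limma adjusted p = 0.209). BUB1B, a spindle checkpoint kinase, was at 1.26 and 1.93, against 2.93 (log2 change -1.34 ± 0.41, limma adjusted p = 0.219). For these 3 genes both day 4 libraries lay below day 0 and replicate 2 was the lower. In the shSOX2 line the partners had a median of -0.31, and 0 of 29 were lower at an unadjusted p under 0.05, where 4.26% of all tested genes were. AURKA was at 3.27 and 3.21 there, against 3.90, and SPC25, a kinetochore subunit, at 1.36 and 1.03, against 2.15. NUMA1 went the other way in shSOX2 cells, at 4.33 and 4.38, against 3.78. Both day 4 libraries were below day 0 in 20 of the 29, where 40.2% of all tested genes were. They were above it in 4 of the 29, where 33.3% were. NUMA1 was also the 1 higher partner in the shTP63 line, at 4.86 and 4.85, against 4.07.

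Genes of S phase, before the window in which mitotic kinesin mRNAs peak, were lower at day 4 in both lines. The median log2 change of the 17 tested was -1.35 in the shTP63 line, -1.73 in replicate 2 and -1.08 in replicate 1. It was -0.88 in the shSOX2 line, -0.91 in replicate 2 and -0.74 in replicate 1. Limma called 0 of 17 in each line, and at an unadjusted p under 0.05 13 were lower in the shTP63 line, where 7.23% of all tested genes were, and 7 in the shSOX2 line, where 4.26% were. UHRF1, which maintains DNA methylation at replication, was at 2.09 and 1.77 in shTP63 cells at day 4, against 4.19 at day 0 (log2 change -2.26 ± 0.34, limma adjusted p = 0.113). In shSOX2 cells UHRF1 was at 2.93 and 2.70 at day 4, against 4.37 at day 0 (log2 change -1.55 ± 0.34, limma adjusted p = 0.323). MCM7, a subunit of the replicative helicase, was at 4.40 and 4.72 in shTP63 cells at day 4, against 6.34 at day 0 (log2 change -1.78 ± 0.35, limma adjusted p = 0.131). CDC6, which loads that helicase, was at 1.14 and 1.68 in shTP63 cells at day 4, against 2.98, and at 1.86 and 1.93 in shSOX2 cells at day 4, against 3.25. Both day 4 libraries were below day 0 in 15 of the 17 in the shTP63 line, where 38.5% of all tested genes were, and in 16 of the 17 in the shSOX2 line, where 40.2% were. In shTP63 replicate 1 the S phase median of -1.08 stood beside -0.32 for the mitotic kinesins.

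Of the 20 tested regulators of mitotic transcription (MuvB and DREAM subunits, E2F, NF-Y, FOXM1, B-MYB and their upstream inhibitors), the median log2 change was -0.29 in the shTP63 line and -0.36 in the shSOX2 line, and limma called 0 of 20 in either. FOXM1, an activator of G2 and M genes, was at 3.42 and 4.19 in shTP63 cells at day 4, against 4.90 at day 0, and at 4.62 and 4.45 in shSOX2 cells at day 4, against 5.12 at day 0. MYBL2, which encodes B-MYB, had log2 changes of -1.46 ± 0.55 in the shTP63 line and -1.04 ± 0.55 in the shSOX2 line (limma adjusted p = 0.285 and 0.544). For both genes each induced library lay below its own day 0, and both were added after their values were seen. At an unadjusted p under 0.05, 5 of 20 were lower in the shTP63 line, where 7.23% of all tested genes were. There 1 of 20 was higher, where 7.33% were. In the shSOX2 line 3 of 20 were lower, where 4.26% of all tested genes were, and 0 higher, where 6.12% were. E2F2 and E2F8 were among the lower in both lines, with log2 changes of -0.95 and -0.78 in shTP63 and -0.86 and -0.82 in shSOX2. CDKN1A, the p21 inhibitor of cyclin-dependent kinases, was at 5.73 and 5.67 in shTP63 cells at day 4, against 4.24 at day 0 (log2 change 1.47 ± 0.37, limma adjusted p = 0.167). Set against the induced shSOX2 libraries, at 3.22 and 3.74, it was higher by 2.22 ± 0.30 (limma adjusted p = 0.0392), the only gene of these lists that limma called in any of the 4 comparisons. That difference includes one between the uninduced lines, where CDKN1A was at 4.24 in shTP63 cells and at 3.32 in shSOX2 cells.

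The partners of transport motors were taken next. The 22 tested kinesin light chains and adaptors had a median log2 change of 0.07 in the shTP63 line and of 0.15 in the shSOX2 line, and limma called 0 of 22. KLC4, a light chain, was at 2.02 and 1.87 in shTP63 cells at day 4, against 1.49 at day 0 (log2 change 0.45 ± 0.31, limma adjusted p = 0.542). The 22 tested genes of dynein and dynactin, the motor toward the minus ends, include the regulators PAFAH1B1 and NDE1. The medians of these 22 were 0.16 in the shTP63 line and -0.24 in the shSOX2 line. CAPZB and ACTR10, both of dynactin, were at 5.03 and 4.92 in shTP63 cells at day 4, against 4.20, and at 2.93 and 2.95, against 2.19. These 2 of 22 had an unadjusted p under 0.05, a share near the 7.33% of all tested genes that were higher. Both day 4 libraries of the shTP63 line were below day 0 in 3 of the 22, where 38.5% of all tested genes were. They were above it in 13 of the 22, where 37.9% were. In the shSOX2 line both were below day 0 in 15 of the 22, where 40.2% of all tested genes were. They were above it in 2 of the 22, where 33.3% were. Limma called 0 of 22 in either line.

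**Figure D4:**
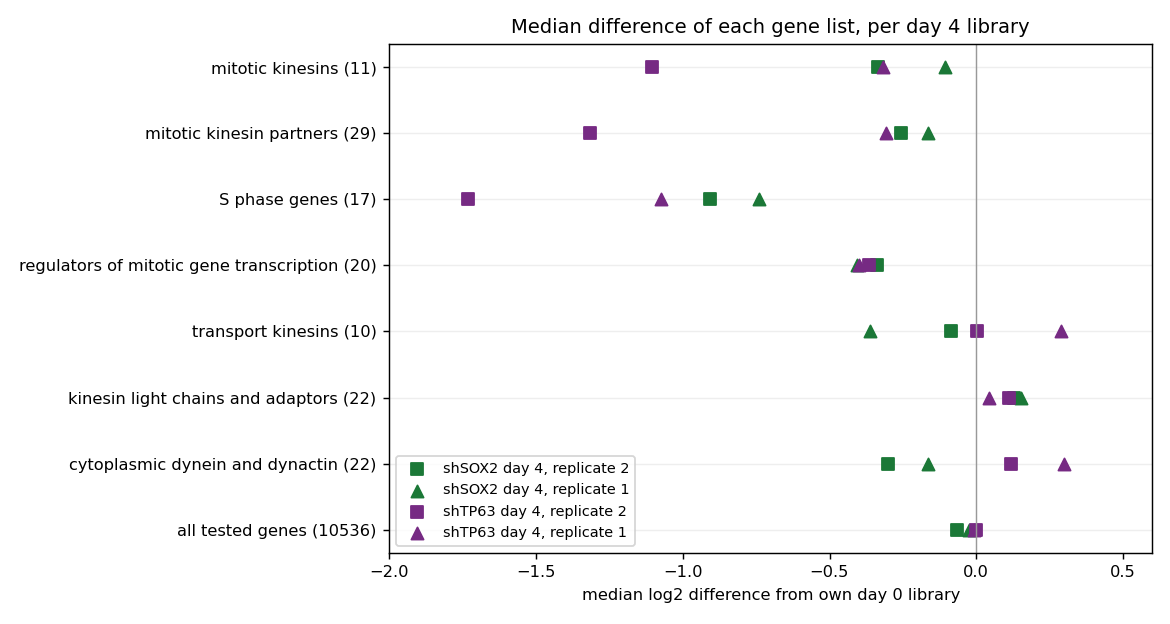
Median log2 difference from the line's own day 0 library for the mitotic and transport kinesins, the partner and cell cycle lists and all 10536 tested genes, with one point for each of the 4 day 4 libraries. The S phase median lies below that of all tested genes in each library and is lowest in shTP63 replicate 2, at -1.73. The medians of mitotic kinesins and their partners are also lower there, at -1.10 and -1.31, than in the other 3 libraries.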

How the data were processed

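Poly(A) RNA of 6 KYSE70 libraries was converted to random-primed cDNA and sequenced on an Illumina HiSeq, per the labels' protocols. The deposited table holds RPKM, reads normalized to gene length and library total, on a log scale that was taken as log2(RPKM + 1). The median over tested genes is 2.36 to 2.37 in every library, a pattern that quantile normalization leaves, and such a step hides global shifts. The submitters' processing notes name hg19. No aligner, read counter or gene annotation is named in the labels used here. The log base was checked by summing RPKM times exon length, which exceeded its ceiling of 1e+06 in each library with base e or 10 and not with base 2. Depth is unknown, so no counting interval is given.

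The filter kept the 10536 of 48644 genes whose linear RPKM averaged 1 or more. limma 3.58.1 (R 4.3.3) fitted 4 group means to the 6 libraries with a mean-variance trend, 2 residual and 5.5 prior degrees of freedom, and two-sided p-values adjusted by the Benjamini-Hochberg method over all tested genes, with a threshold of 0.05. Each day 0 group, with 1 library, borrows its spread from the day 4 pairs. The fit was tested on simulated data. Members and lists were chosen with earlier results of these data known. Values in each library were given for the 3 highest kinesins of each class, the 4 mitotic and 4 transport kinesins of smallest p per induction, other tested kinesins added to them, and genes from the 3 of smallest p in each list. FOXM1 and MYBL2 were added after their values were seen. Alternatives changed the filter, pseudocount, scaling, trend, controls, libraries and class of uncertain members.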

Additional observations from a re-analysis of the deposited data

How the results depend on the processing

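No tested kinesin named by level or p passed the threshold in either induction under the settings that gave it a value (smallest limma adjusted p 0.0882). Genes under the higher filter have no value there, and the wider role classes bear on medians alone. Genes called in the shTP63 induction (2) numbered 154 without a filter, 1 with a filter at 5 in mean linear RPKM, 291 with both day 0 libraries as control, 0 with the line alone, 49 with the other line's day 0, and 0 to 80 on leaving out a library. In the shSOX2 induction (0) they were 1 with a pseudocount of 5, 2 with both day 0 libraries, 11 with the line alone, 4 with the other day 0, and 0 to 11. Between the induced lines (80) they were 0 without a filter, 44 with the higher filter, 30 with the pseudocount, 1 with both day 0 libraries pooled, and 0 to 324. For the difference of responses they were 0 to 5. Kinesins called were 1 without a filter in shTP63 (KIFC3). Between the induced lines, some were called only without shTP63 day 4 replicate 1, a fit that left 1 library in that group.

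With the higher filter, the transport median was -0.39 in shSOX2 (leave-one-out -0.36 to -0.084) and -0.21 in shTP63 (-0.072 without a filter), the mitotic minus transport median in shTP63 was -0.53 (-0.47 with the pseudocount), and between induced lines the mitotic median was -1.18 (-0.585 with the main filter, leave-one-out -1.11 to -0.27) and the class difference -1.38 (-0.79 with the main filter, leave-one-out -1.25 to -0.49). The transport median there was 0.12 without a filter, 0.13 with the pseudocount and 0.13 to 0.30 on leaving out a library. Fewer tested genes gave 4 mitotic and 3 transport kinesins lower in both libraries of shSOX2 and 5 mitotic in shTP63. With both day 0 libraries these counts were 3 mitotic in shSOX2 and 1 transport in shTP63, with the other day 0 4 mitotic in shSOX2, with median-ratio scaling 3 transport in shSOX2, without a filter 6 transport in shTP63, and on leaving out a library 4 to 5 transport in shTP63.

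Directions that turned, all uncalled, were in shSOX2 KIF2C (0.29 with both day 0 libraries, 0.0037 with scaling, 0.63 with the other day 0), KIFC2 (0.25 and 0.75), KIF26A (0.079 and 0.30), KIF20A (0.31 and 1.05), and with the other day 0 KIF3B (0.28), KIF21A (0.081) and KIF4A (0.26). In shTP63 they were KIFC2 (-0.47 and -0.98) and KIF3B (-0.31). KIF18B in shSOX2 ran from -0.39 to 0.55 on leaving out a library.

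Between the lines, day 4 libraries with the same number did not deviate together, and the numbers were not taken as pairs. Over the tested genes, replicate 2 minus replicate 1 at day 4 in one line had a correlation of -0.074 with that in the other. This cannot test whether day 4 replicate 2 pairs with day 0 replicate 2 within a line. With the replicate block, genes called were 0 in shTP63 and 18 between induced lines, the shSOX2 mitotic median was -0.46, and KIF18B was at -0.44 and KIF26A at 0.067 in shSOX2. The other line's day 0 was chosen as a control after seeing the data. The causes were not tested.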

Other observations

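KIFC3, a minus-end kinesin of cell junctions that was under the filter and was singled out after its values were seen, was at 0.03 and 0.04 in shTP63 cells at day 4, against 1.03 at day 0. It was at 0.05 and 0.04 in shSOX2 cells at day 4, against 0.30 at day 0. It was the only kinesin that limma called in an induction under any setting, which was the shTP63 line without a filter (log2 change -0.99, limma adjusted p = 0.0443). The uninduced shTP63 library, which holds its highest value, is also the one with the fewest genes above 0 and with a smallest value above 0 of 0.143. The part of that library in the result was not tested.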
